A study of Mus musculus with 30 samples.

Results

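The immunoglobulin heavy and light chain genes were followed across 30 libraries of a mouse B-cell lymphoma line. The genes were the rows of the count table whose symbol names a heavy (Ighv, Ighd, Ighj, Ighm, Ighg, Igha, Ighe), kappa (Igkv, Igkj, Igkc) or lambda (Iglv, Iglj, Iglc) gene, and they were chosen by their summed count, at least 30 over the 30 libraries. Of 395 such rows, 250 held no count at all and 46 passed, out of 55401 rows in the table, and those 46 held 99.93% of the immunoglobulin counts. The last row to pass was Igkv10-96 with 32 counts, and the first to fail were Igkv4-50 and Igkv4-61 with 29 each. Because summed counts chose the genes, their presence in the data is a description and not a result.

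All lines carried the Eµ-Myc transgene, in which the immunoglobulin heavy chain enhancer Eµ drives Myc in B-lineage cells, and were p19ARF -/-, including the controls. The 30 lines, each sequenced as 1 library, were 12 DMSO controls, 17 paclitaxel resistant lines and 1 parental line. The lines were grown in parallel from wells of the 1 parental line in repeated cycles of drug, or of DMSO for the controls, and recovery, so each is a population of cells and not a single-cell clone. The libraries count RNA 3′ ends, and levels are CPM, read counts set relative to library size and scaled by edgeR's TMM factors.

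An antibody chain is put together in each B cell from 1 variable (V), sometimes 1 diversity (D), and 1 joining (J) segment, spliced to a constant (C) region. The V and J segments a cell has joined are passed to its descendants, so segment use marks clones, while the constant region gives the isotype. A B cell usually uses either kappa or lambda light chains, and naive B cells express IgM and IgD heavy chains from a shared transcript before any class switch.

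The constant regions held 98.8% of the counts of the 46 genes, the V segments 0.809% and the J segments 0.411%. Igkc, the kappa constant region, alone held 54.8% and Ighm, the IgM constant region, 35.2%. The 46 comprised 3 heavy V, 1 heavy J and 2 heavy C genes, 27 kappa V, 4 kappa J and 1 kappa C gene, and 2 lambda V, 2 lambda J and 4 lambda C genes. Of the 46, 7 had a count in all 30 libraries and 8 in 10 libraries or fewer. Possible clone marks therefore rest on few counts. A count of 0 allows a level of up to 0.435 CPM in the deepest library and 6.23 CPM in the shallowest, with 3 counts as the limit. Counts per gene do not show whether a segment was joined, and no reads spanning V and J were examined. In what follows, use of a segment means its counts, and clonality was not tested.

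The J segments are shown because their use separated libraries of the same treatment. The 6 light chain J segments among the 46 genes have these coding sequences, read from GRCm38 at the gencode M21 positions. They are written 5′ to 3′ on the coding strand, with the stretch in capitals that codes the Phe-Gly-X-Gly motif, which all 6 hold.
Igkj1: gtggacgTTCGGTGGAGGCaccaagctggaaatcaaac
Igkj2: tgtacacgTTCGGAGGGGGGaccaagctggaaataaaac
Igkj4: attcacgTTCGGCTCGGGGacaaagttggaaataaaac
Igkj5: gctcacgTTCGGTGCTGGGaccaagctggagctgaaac
Iglj1: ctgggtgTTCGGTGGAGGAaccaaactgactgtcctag
Iglj3: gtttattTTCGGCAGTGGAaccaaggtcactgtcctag
The motif was searched on the coding strand only and stands in 8 of the 14 annotated heavy, kappa and lambda J segments (57.1%). The heavy J segments and the light chain segments Igkj3 and Iglj3p lack it. Igkj1 and Igkj2 were identical over 82.1% of their aligned bases and Igkj2 and Igkj4 over 79.5%.

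Of the V segments, Igkv4-68 and Igkv4-63 are shown because they were high in different libraries. Their last 150 coding bases, the end that joins J, lie at chr6:69304834-69304983 and chr6:69377944-69378093 of GRCm38, both on the minus strand. The 18 bases that differ between them stand in capitals.
Igkv4-68: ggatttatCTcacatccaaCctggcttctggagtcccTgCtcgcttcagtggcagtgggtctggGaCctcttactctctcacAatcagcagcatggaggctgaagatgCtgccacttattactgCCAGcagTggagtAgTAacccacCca
Igkv4-63: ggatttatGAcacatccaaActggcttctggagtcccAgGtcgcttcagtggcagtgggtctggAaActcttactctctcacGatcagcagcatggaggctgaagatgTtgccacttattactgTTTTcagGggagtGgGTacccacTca
Over their whole coding sequence the pair was 91.8% identical, with a longest shared stretch of 45 bases, so reads that span a difference tell them apart. Igkv4-59, with 43 counts over all libraries, matches Igkv4-68 at every base over most of the 150 shown, up to their end. Reads within that part do not tell Igkv4-68 from Igkv4-59. Over the whole coding sequence some other pairs were closer than Igkv4-68 and Igkv4-63. Igkv6-20 and Igkv6-29 were 98.6% identical, Igkv4-51 and Igkv4-58 96.4%, and the lambda constant regions Iglc2 and Iglc3 96.2%. How the counting divided reads within those pairs, and between Igkv4-68 and Igkv4-59, is uncertain.

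Library totals ran from 480919 to 6739131 counts, with a median of 3844458. Earlier results of these data had put every label from DMSO 12 on in doubt, which takes in each paclitaxel resistant library named here and the library labelled Parental, and the library labelled DMSO 12 went against its label here. A value given for a named library is therefore that of the library carrying the label. Over 322 genes other than immunoglobulin genes that differed between the treatments when the libraries labelled DMSO 12 and Pac H9 were left out, DMSO 12 was nearer to the mean of the paclitaxel resistant libraries for 224 and to that of the DMSO control libraries for 98. The library labelled Pac H9 was split, nearer to the paclitaxel resistant mean for 175 genes and to the DMSO control mean for 147, and the library labelled Parental was nearer to the DMSO control mean for 254. Values are given under the deposited labels throughout, with and without DMSO 12 and Pac H9 where a result rests on them. The B-lineage identity of the line was checked against 8 markers, each of which was counted in at least 29 of the 30 libraries. They summed to between 2263 and 4368 CPM in the DMSO control libraries and between 1427 and 3989 CPM in the paclitaxel resistant libraries. Of these, edgeR called 0 at an adjusted p below 0.01, with 3 at an unadjusted p below 0.05, which 25.1% of all rows tested passed, and 1 (Cd79b) called by the likelihood ratio test, beside 4.74% of all rows, and by DESeq2, beside 4.23%. Ms4a1, which encodes CD20, had a median of 141 CPM in the DMSO control and 12.5 CPM in the paclitaxel resistant libraries, 1 of which held 0 counts (log2 fold change -1.84 ± 0.76 (SE), edgeR adjusted p = 0.13, and -2.37 ± 0.77 with an adjusted p of 0.047 without the libraries labelled DMSO 12 and Pac H9). Blk, a B-cell tyrosine kinase, was also at 0 in 1 paclitaxel resistant library, and the part of these markers in the results was not tested. Over all labelled libraries the 6 plasma cell markers summed to at most 41.1 CPM and the 6 T cell markers to at most 19.4 CPM. Of the T cell markers, Cd3e and Cd4 were at 0 counts. Cd3d was counted in 28 libraries, up to 9.04 CPM, and Cd3g in 9, up to 12.9 CPM. The 6 myeloid markers summed to at most 50.8 CPM, nearly all Itgam, with Adgre1 at 0. Of the plasma cell, T cell and myeloid markers that passed the filter, edgeR, DESeq2 and the likelihood ratio test called 0, and none had an unadjusted p below 0.05.

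The first question was whether the level of immunoglobulin transcripts differed between the treatments. The 46 genes together took 0.695% to 1.62% of all counts in the DMSO control libraries and 0.448% to 2.06% in the paclitaxel resistant libraries. Their summed level had a median of 11519 CPM in the DMSO control libraries (range 7026 to 16126) and of 10902 CPM in the paclitaxel resistant libraries (range 4019 to 20941), so the ranges overlapped over most of their width. In bulk libraries, fewer cells that express a gene and less RNA per cell cannot be told apart.

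Differential expression was fitted with edgeR's quasi-likelihood test over 9445 rows that passed its filter on low counts. Of the 46 genes, 16 passed that filter and the other 30 did not, among them all 3 heavy V segments and all but 5 of the 27 kappa V segments. At an adjusted p below 0.01 the test called 0 of the 16, beside 2.20% of all rows tested. At an unadjusted p below 0.05 the count was 6, of which 2 were higher and 4 lower in the paclitaxel resistant libraries, where 25.1% of all rows tested passed. The median log2 fold change of the 16 was -0.18, beside 0.07 over all rows tested. edgeR's likelihood ratio test also called 0 of them, beside 4.74% of all rows, and DESeq2 called 3 of the 31 to which it gave an adjusted p, namely Iglc1, Igkv4-63 and Igkv4-62, beside 4.23% of all rows. The last 2 were counted nearly all in the DMSO control libraries and reached the summed count minimum through them.

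The heavy chain isotype was IgM in every library. Ighm had a lowest, median and highest level of 2644, 3178 and 6235 CPM in the DMSO control libraries and of 1968, 3521 and 6788 CPM in the paclitaxel resistant libraries. The groups overlapped, with a log2 fold change of 0.06 ± 0.16 (SE; edgeR adjusted p = 0.84). The constant regions of the switched isotypes stayed under the count minimum. Ighg1 (IgG1) held 5 counts over all libraries, Ighg2b 16, Ighg2c 3, Ighe (IgE) 2 and Ighg3 0. Igha, the IgA constant region, held 25, of which 20 were in the library labelled Pac D7.

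Ighd, the IgD constant region that is spliced from the same primary transcript as Ighm, was lower in most paclitaxel resistant libraries. Its lowest, median and highest levels were 35.7, 107 and 215 CPM in the DMSO control libraries and 6.09, 29.1 and 235 CPM in the paclitaxel resistant libraries. DMSO 12 was the lowest library of its group and Pac H9 the highest of all libraries. All 16 other paclitaxel resistant libraries lay below the DMSO control median, and 11 lay below the lowest DMSO control library. The log2 fold change was -1.22 ± 0.38 (SE) with an edgeR adjusted p of 0.042, which does not pass 0.01. Without the libraries labelled DMSO 12 and Pac H9 the highest paclitaxel resistant library was at 102 CPM and the lowest DMSO control library at 43.7 CPM, and the log2 fold change of -1.69 ± 0.32 passed (edgeR adjusted p = 0.00079, beside 1.70% of rows called lower in that fit). Leaving out each of the 27 libraries of that fit in turn kept the adjusted p between 0.00014 and 0.0022.

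As a share of Ighm and Ighd counts, Ighd had a median of 3.22% in the DMSO control libraries (range 0.886% to 5.15%) and of 0.835% in the paclitaxel resistant libraries (range 0.308% to 6.25%). The library labelled Parental, whose label is among those in doubt, was at 1.41%, between the medians. Without the libraries labelled DMSO 12 and Pac H9 the paclitaxel resistant libraries reached 3.15% at most, in Pac H1.

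**Figure D1:**
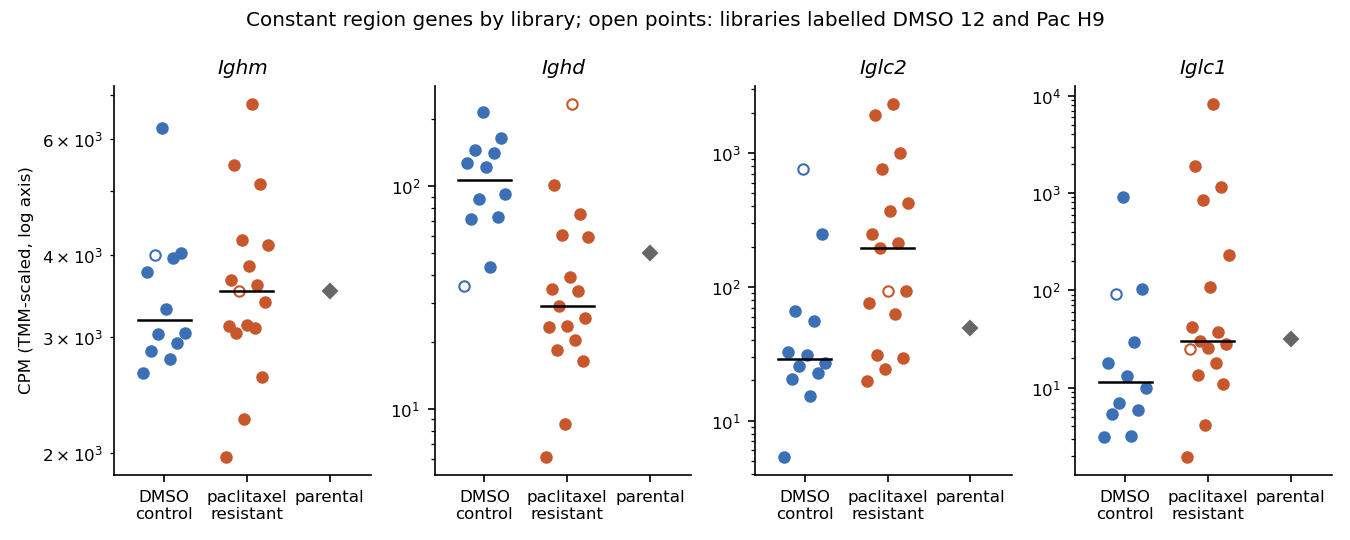
Levels of Ighm, Ighd, Iglc2 and Iglc1 in CPM on log axes, 1 point per library, by deposited label; black lines are group medians, open points the libraries labelled DMSO 12 and Pac H9, and the diamond the parental library. Ighm overlaps between the groups, the median of Ighd is 107 CPM against 29.1 CPM, and Iglc2 and Iglc1 spread over more than an order of magnitude in both treatments.

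Light chain transcripts were mostly kappa, and the lambda part differed most between libraries. Igkc ran from 1723 CPM through a median of 7094 CPM to 9541 CPM in the DMSO control libraries and from 1011 CPM through 5587 CPM to 8558 CPM in the paclitaxel resistant libraries, with a log2 fold change of -0.24 ± 0.27 (SE; edgeR adjusted p = 0.60). The summed lambda level ran from 99.5 to 1486 CPM (median 223) in the DMSO control libraries and from 41.7 to 8619 CPM (median 480) in the paclitaxel resistant libraries. The kappa ranges overlapped almost entirely, and the 4 highest lambda levels were in libraries labelled paclitaxel resistant.

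Lambda constant regions made up a median of 2.91% of light chain constant counts in the DMSO control libraries and 10.2% in the paclitaxel resistant libraries. The share passed 10% in 2 of 12 DMSO control libraries, DMSO 8 at 23.5% (95% exact binomial interval 22.9% to 24.2%) and DMSO 12 at 45.6% (44.4% to 46.9%), and in 9 of 17 paclitaxel resistant libraries. The other 10 DMSO control libraries lay between 1.15% and 5.36%. Pac D7 was the only library with more lambda than kappa by a wide margin, at 83.7% (83.2% to 84.2%), and Pac C3 and Pac H3 were near even at 50.3% (49.4% to 51.1%) and 49.5% (48.98% to 49.97%). At the other end, Pac C1 held 0.573% (0.355% to 0.875%) and Pac A6 0.836%, below every DMSO control library. The library labelled Parental held 3.83%. These intervals cover counting error only.

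Of the lambda constant regions, Iglc2 had a lowest, median and highest level of 5.32, 29.1 and 760 CPM in the DMSO control libraries and of 19.7, 196 and 2346 CPM in the paclitaxel resistant libraries. The log2 fold change was 2.10 ± 0.77 (SE) with an edgeR adjusted p of 0.085, and the highest DMSO control value was that of DMSO 12. Without the libraries labelled DMSO 12 and Pac H9 it was 3.28 ± 0.76 (edgeR adjusted p = 0.0057, beside 1.68% of rows called higher), with 14 of 16 paclitaxel resistant libraries above the DMSO control median. That call depended on single libraries. Leaving out each of the 27 libraries in turn gave log2 fold changes between 2.86 and 4.02 and edgeR adjusted p-values between 0.0011 and 0.013. The call was lost in 9 of the 27 fits, each of which left out a DMSO control library (DMSO 1, 2, 3, 4, 6, 7, 8, 9 or 10).

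Iglc1 rested on few libraries. It ran from 3.08 through 11.5 to 913 CPM in the DMSO control libraries, where DMSO 8 was highest, and from 1.92 through 30.4 to 8278 CPM in the paclitaxel resistant libraries. Pac H3 alone held 19074 of its 37841 counts. The log2 fold change was 2.90 ± 1.15 (SE; edgeR adjusted p = 0.11), and the groups overlapped. Iglc3 ran from 51.9 through 135 to 593 CPM and from 8.30 through 184 to 2852 CPM, with a log2 fold change of 1.17 ± 0.60 (edgeR adjusted p = 0.22). Iglc4 held 197 counts, of which 106 were in Pac D7 and 51 in Pac E1, and did not pass the filter.

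The mix of lambda constant regions set single libraries apart. Iglc1 made up 98.8% of lambda constant counts in Pac H3 (98.6% to 98.9%) and 86.4% in DMSO 8 (85.3% to 87.5%), and 50.3% in DMSO 3, against a median of 8.27% over all libraries. Iglv1, which joins Iglj1 or Iglj3 in the mouse lambda locus, made up 509 of 516 lambda V counts in Pac H3 and 106 of 110 in DMSO 8, but 78.8% in DMSO 3. Its share was also high in libraries where Iglc1 was a small part, with 29 of 30 in the library labelled Parental (Iglc1 at 17.6%) and 91.9% in Pac H1 (Iglc1 at 8.32%). Iglc3 was the largest part in most DMSO control libraries (median 68.5% of lambda constant counts) and Iglc2 in many paclitaxel resistant libraries (median 45.2%). As Iglc2 and Iglc3 are 96.2% identical in coding sequence, this split may depend on how reads were placed.

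**Figure D2:**
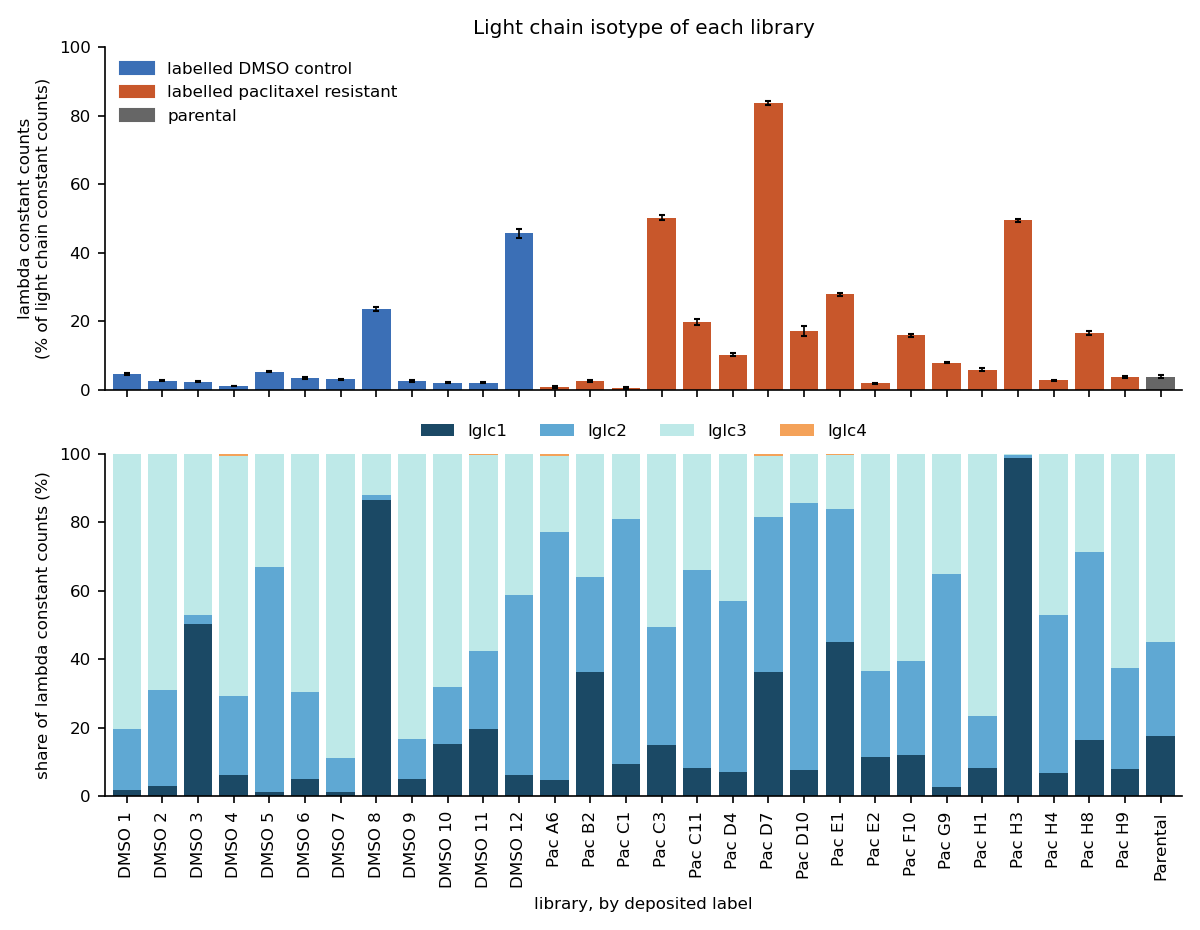
Upper panel, lambda constant counts as a percentage of light chain constant counts in each library, coloured by deposited label, with 95% exact binomial intervals; lower panel, the parts of Iglc1, Iglc2, Iglc3 and Iglc4 in the lambda constant counts. Pac D7 stands highest at 83.7%, and Iglc1 fills nearly the whole bar of Pac H3 and most of that of DMSO 8.

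The lambda V and J segments were sparse. Iglv1 held 1743 counts, of which 509 were in Pac H3, and ran from 5.55 through 8.24 to 30.9 CPM in the DMSO control libraries and from 0 through 8.72 to 221 CPM in the paclitaxel resistant libraries, with a log2 fold change of 1.19 ± 0.66 (SE; edgeR adjusted p = 0.26) that was 0.37 ± 0.59 by DESeq2 (adjusted p = 0.75). Iglv3 held 351 counts (0.21 ± 0.47 on the log2 scale, edgeR adjusted p = 0.81). Iglv1 led the lambda V counts in 22 of the 24 libraries with at least 20 of them, and Iglv3 in DMSO 6 and Pac H8. Iglj3 held 400 counts in 29 libraries (0.48 ± 0.52 on the log2 scale, edgeR adjusted p = 0.59). Iglj1 held 353 counts in 17 libraries, of which 131 were in Pac D7, 119 in Pac E1, 33 in Pac C3 and 31 in Pac H3, and was at 8 counts or fewer in every other library, all DMSO control libraries among them.

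In the lambda locus an antisense gene, 2010309G21Rik, spans Iglc1, Iglj1, Iglc3, Iglj3 and Iglv1 on the opposite strand, and held 2355 counts. Of these, Iglc3 alone shares exon bases with it, 93 of 452. Whether the counting used strand is not given in the sources used here, so its part in the row of Iglc3 was not tested. In the kappa locus the Igkj segments and Igkc lie within the span of the noncoding gene Gm30211 on the same strand, without exon overlap.

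Kappa J use divided the DMSO control libraries. Over the 26 libraries with at least 20 kappa J counts, Igkj2 made up more than 50% of these counts in 7 of 11 DMSO control libraries and under 10% in the other 4. The 4 were DMSO 1 at 7.28% (95% exact binomial interval 3.69% to 12.7%), DMSO 8 at 3.33% (0.406% to 11.5%), DMSO 10 at 5.79% (2.36% to 11.6%) and DMSO 11 at 7.94% (3.87% to 14.1%). The 7 ran from 60.6% in DMSO 6 to 87.6% (83.4% to 91.1%) in DMSO 4. No DMSO control library lay between, and in the 4 the counts were mostly Igkj1 and Igkj4. DMSO 12, with 16 kappa J counts, was below the minimum, and 1 of the 16 was Igkj2 (6.25%, 0.158% to 30.2%).

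The same division was seen in 2 V segments of the Igkv4 family whose ends are printed above. In the 7 DMSO control libraries where Igkj2 was the larger part, Igkv4-68 held 5 to 78 counts (4.93 to 14.5 CPM) and Igkv4-63 held 1 to 5 counts. In the other 4, Igkv4-68 held 0 or 1 count and Igkv4-63 held 24 to 81 (5.21 to 15.6 CPM). The 2 ranges did not touch for either segment. DMSO 12 broke the match, with little Igkj2, 1 count of Igkv4-68 and 0 of Igkv4-63. As the same libraries give all of these values, this is a description with no test. How many reads shared with Igkv4-59 were placed on Igkv4-68 is not known, so the counts of Igkv4-68 are uncertain.

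Among the paclitaxel resistant libraries, 11 of the 14 with at least 20 kappa J counts had Igkj2 above 50%, up to 96.7% (82.8% to 99.9%) in Pac C1. The other 3 were Pac C11 at 7.32%, Pac B2 at 17.9% and Pac D4 at 27.7%. In the 11, Igkv4-68 held 6 to 36 counts (2.97 to 13.1 CPM), and in the other 3 it held 0 to 7. Below the minimum, Igkj2 held 0 of 16 kappa J counts in Pac C3 (0% to 20.6%), 0 of 11 in Pac D7 and 4 of 7 in Pac D10. The segment that marked the second set of DMSO control libraries was nearly absent: Igkv4-63 held 6 counts in all over the 17 paclitaxel resistant libraries, with at most 2 in any of them, against 190 over the 12 DMSO control libraries.

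The library labelled Parental held both sets of segments. Its 53 kappa J counts were 41.5% Igkj2 (28.1% to 55.9%) and 39.6% Igkj4 (26.5% to 54.0%), and it held 4 counts of Igkv4-68 and 9 of Igkv4-63. It was 1 library with no replicate, and its label is among those in doubt.

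**Figure D3:**
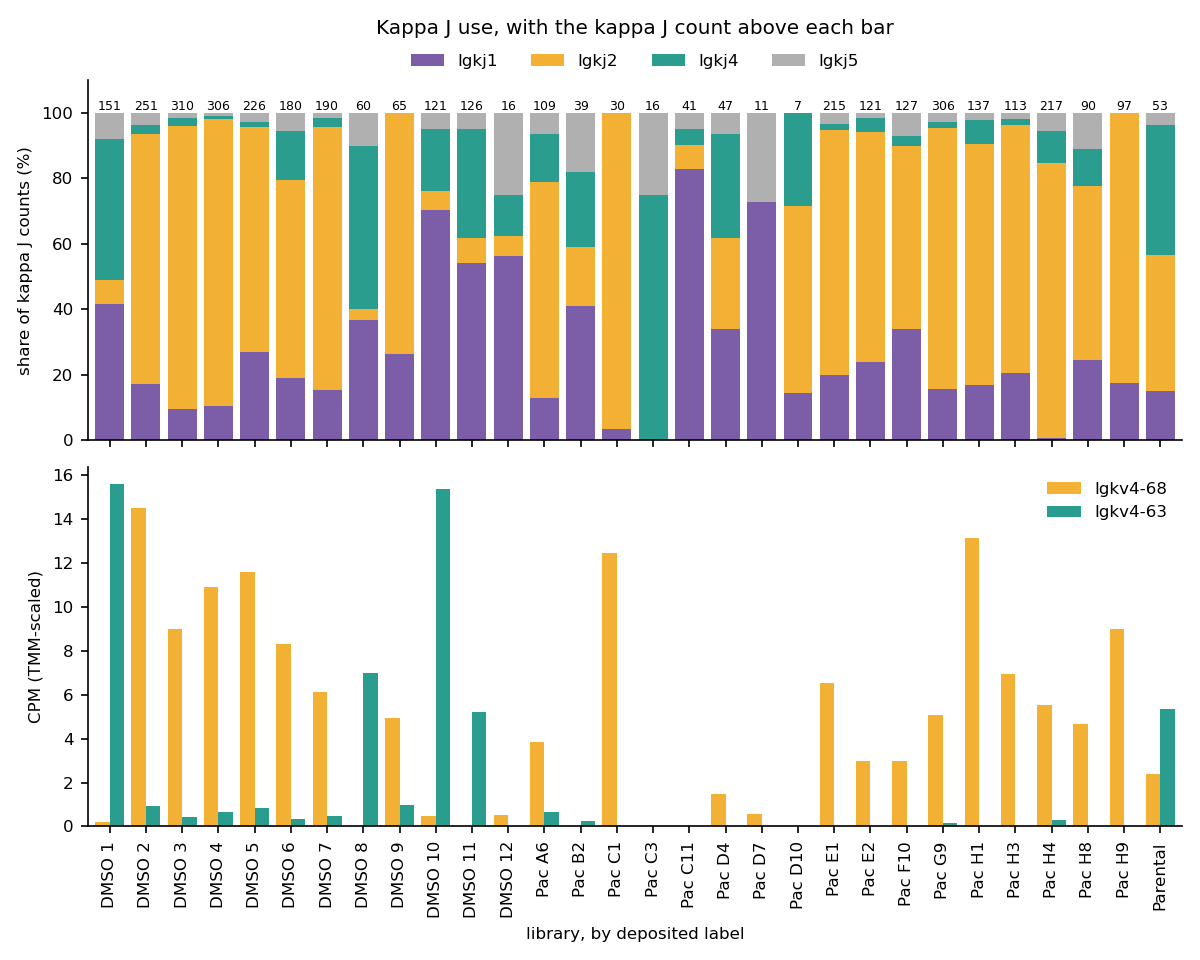
Upper panel, the parts of Igkj1, Igkj2, Igkj4 and Igkj5 in the kappa J counts of each library by deposited label, with the count above each bar; lower panel, the level of Igkv4-68 and Igkv4-63 in CPM. DMSO 1, 8, 10 and 11 have little Igkj2 and are the DMSO control libraries with 24 or more counts of Igkv4-63, DMSO 12 has little Igkj2 and 0 counts of it, and no paclitaxel resistant library holds more than 2.

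Igkv4-63 did not pass the filter on low counts. With the filter off, edgeR tested 27098 rows and called 1 V segment of the 46 genes higher (Igkv6-20, beside 0.454% of all rows) and 3 lower (Igkv4-63, Igkv4-62 and Igkv3-2, beside 0.568%) in the paclitaxel resistant libraries. A segment counted mostly in 1 treatment reaches the summed count minimum through that treatment, so these calls are given as counts and support nothing. Igkv4-62, which is 91.8% identical to Igkv4-63 with a shared stretch of 91 bases, held 14 counts in the paclitaxel resistant and 186 in the DMSO control libraries. Igkv3-2 held 53 of 69 counts in DMSO 6, and Igkv6-20 held 71 of 112 in Pac D7, so each rested mostly on 1 library.

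Of the kappa segments that passed the filter, the most counted were Igkv19-93, Igkj2, Igkj1, Igkv4-51, Igkv4-58 and Igkv4-68. Igkv19-93 ran from 10.0 through 33.4 to 95.3 CPM in the DMSO control libraries and from 0.434 through 21.8 to 44.4 CPM in the paclitaxel resistant libraries, with a log2 fold change of -0.71 ± 0.36 (SE; edgeR adjusted p = 0.21). For Igkj1 the log2 fold change was -0.96 ± 0.41 (edgeR adjusted p = 0.14), for Igkv4-51 -1.01 ± 0.39 (0.11) and for Igkv4-58 -0.79 ± 0.40 (0.22). Igkj2, at -0.12 ± 0.65 (0.92), and Igkv4-68, at -0.44 ± 0.65 (0.70), had the widest errors, and both were near 0 in some libraries of each treatment. None of these passed 0.01, and the groups overlapped for each.

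Igkv19-93 led the kappa V counts in 24 of 30 libraries, 11 of 12 labelled DMSO control and 13 of 17 labelled paclitaxel resistant. Its share reached 72.5% (66.7% to 77.7%) of 265 kappa V counts in DMSO 10. The median share of the leading segment was 42.1% in the DMSO control and 42.7% in the paclitaxel resistant libraries, so in most libraries no single V segment held the majority of kappa V counts. The 6 libraries led by another segment were DMSO 6 by Igkv3-2 at 32.1% (25.1% to 39.8%), Pac C3 by Igkv8-27 at 44.7% (36.6% to 53.0%), Pac E1 and Pac H3 by Igkv4-68 at 32.2% and 25.8%, Pac C1 by Igkv12-46 at 17.1% (7.15% to 32.1%) and the parental library by Igkv4-63 at 17.0% (8.07% to 29.8%). In Pac C1 and the parental library the leading share rests on 7 and 9 counts.

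Of the 39 V and J segments, 8 had over 50% of their counts in 1 library. All 42 counts of Igkv6-29 were in Pac D7, which also held 71 of the 112 of its near-identical neighbour Igkv6-20, 25 of the 47 of Igkv10-95 and 47 of the 56 of the heavy segment Ighv8-7. Igkv8-27 held 67 of 105 counts in Pac C3, Igkv5-39 30 of 39 in Pac B2, and Igkv3-2 53 of 69 in DMSO 6. Igkv5-48, 83.0% identical to Igkv5-39, held 30 of its 64 counts in Pac B2 too. In Pac D7, therefore, the highest lambda share of all libraries, most Igha counts and several rare kappa segments stood together. Its 428 kappa V counts were spread over 21 segments, led by Igkv19-93 at 36.9%.

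Heavy chain V and J segments were barely counted. Ighv8-7, annotated as a pseudogene, held 56 counts, Ighv8-6 held 51, Ighv5-2 held 39 and Ighj2 held 39. Of 39 counts of Ighv5-2, 22 were in Pac G9 and 15 in Pac H8. Only Pac D7, led by Ighv8-7 with 47 of 54 heavy V counts, and Pac G9, led by Ighv5-2 with 22 of 22, reached 20 heavy V counts, and no leading heavy V segment is given for the other libraries.

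**Figure D4:**
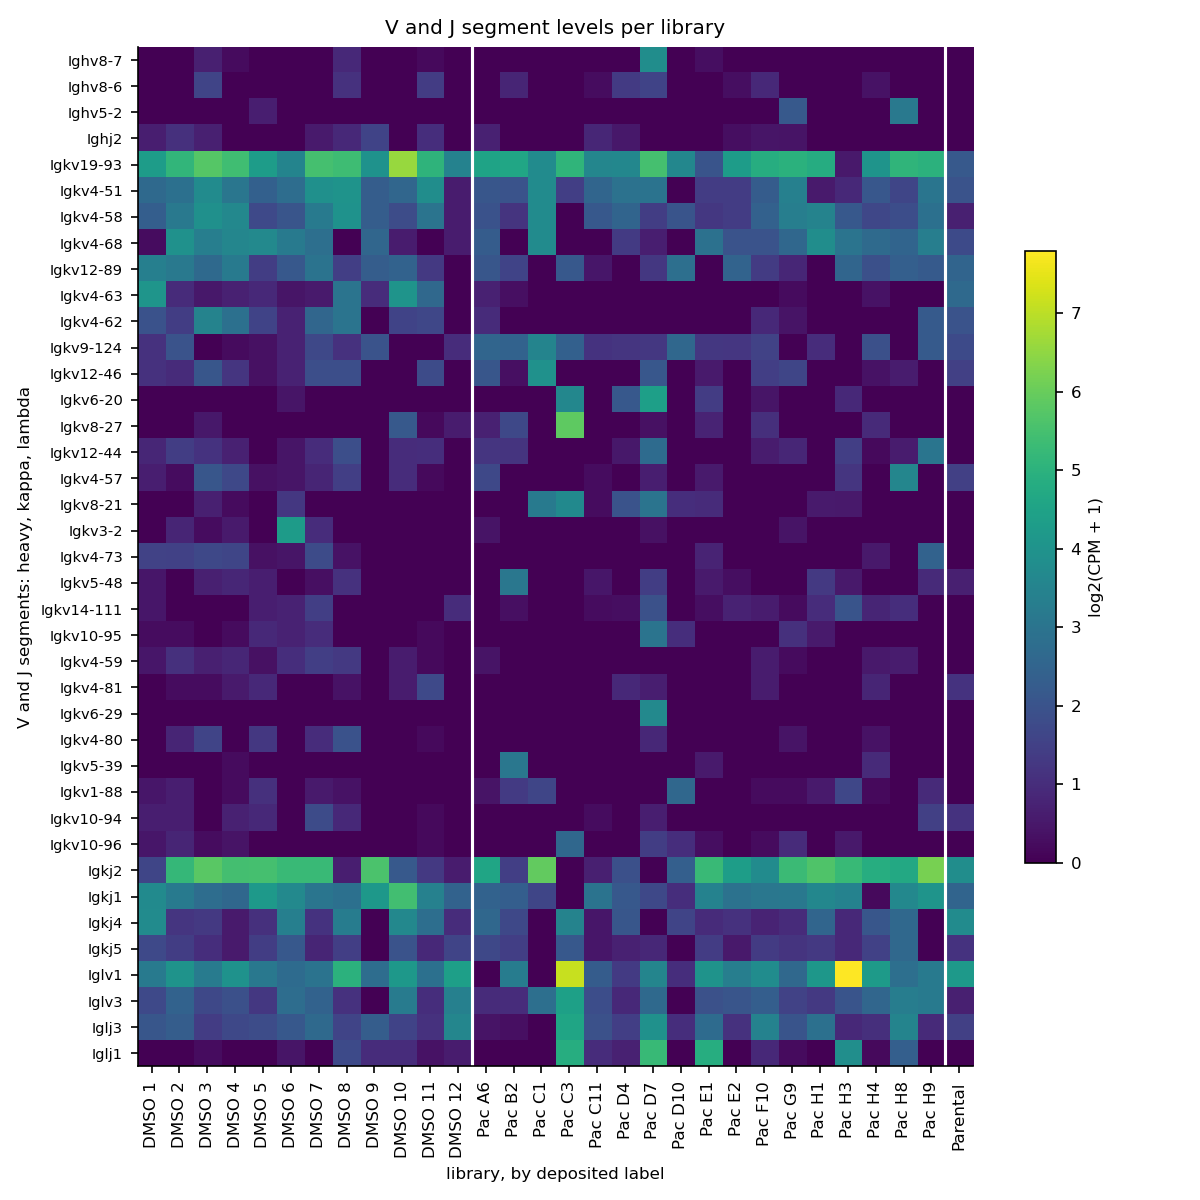
Level of each of the 39 V and J segments as log2(CPM + 1), rows by chain and summed count, columns the libraries by deposited label, with white lines between DMSO control, paclitaxel resistant and parental libraries. Igkv19-93, Igkj2 and Iglv1 run across most columns, whereas Igkv6-29, Igkv3-2, Igkv5-39 and Ighv8-7 light up in 1 or few columns.

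Genes that act on immunoglobulin loci and chains were taken from 5 lists. In the surrogate light chain and pre-B receptor list, 4 of 6 genes were tested and edgeR called 0, with 1 at an unadjusted p below 0.05, beside 25.1% of all rows tested. That gene was Cd79b, the Ig-beta signalling chain of the B-cell receptor, with medians of 1747 CPM in the DMSO control and 1100 CPM in the paclitaxel resistant libraries and a log2 fold change of -0.64 ± 0.16 (SE; edgeR adjusted p = 0.013). Without the libraries labelled DMSO 12 and Pac H9 it was -0.69 ± 0.17 (adjusted p = 0.0075), and the likelihood ratio test and DESeq2 called it in all libraries. Its partner Cd79a (edgeR adjusted p = 0.30) and Vpreb3, an endoplasmic reticulum protein of B cells (log2 fold change -0.18, adjusted p = 0.66), did not pass. Nor did Igll1, a surrogate light chain and the fourth gene tested, which ran up to 10.2 CPM in the DMSO control and 40.6 CPM in the paclitaxel resistant libraries (log2 fold change 1.37 ± 0.76 (SE), edgeR adjusted p = 0.26).

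In the rearrangement list, edgeR called 0 of 11 tested genes and 5 had an unadjusted p below 0.05, again beside 25.1% of all rows tested, the background for each list. Rag1 and Rag2, which cut DNA at V, D and J segments, had log2 fold changes of -0.53 ± 0.59 (SE; edgeR adjusted p = 0.60) and -0.95 ± 0.46 (0.19), and both were counted in libraries of each treatment, with Rag1 up to 76.6 CPM in the DMSO control and 86.9 CPM in the paclitaxel resistant libraries. Of the class switching and hypermutation list, 0 of 13 tested genes passed and 8 had an unadjusted p below 0.05. Of the transcription factors of the loci, 0 of 23 passed (6 at an unadjusted p below 0.05), among them Pou2af1, the B-cell octamer coactivator (0.30 ± 0.16, adjusted p = 0.25), and Irf4 (-0.35 ± 0.25, 0.38). Of the folding and secretion list, 0 of 14 passed (2 at an unadjusted p below 0.05), among them the chaperone Hspa5. For these 4 lists the likelihood ratio test and DESeq2 also called 0 genes.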

How the data were processed

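Libraries of RNA 3′ ends from 30 lines were made by the authors in 2 subpools, with a barcode per line and random molecular identifiers, and aligned to GRCm38 with STAR 2.5.1b. The deposited values are the whole-number counts per gene given by STAR, not normalized. Whether molecular identifiers were collapsed, how reads shared by similar segments were treated and which library was in which subpool are not given in the sources used here, so intervals cover counting error only and the subpool was not modelled. Symbols and positions were those of gencode M21, found for 55141 of 55401 rows.

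Counts were scaled with TMM factors, filtered with filterByExpr and fitted by the quasi-likelihood F test of edgeR 4.0.16 (R 4.3.3), with p-values adjusted by Benjamini and Hochberg over all rows tested and a threshold of 0.01. The fit held the 12 DMSO control and 17 paclitaxel resistant libraries, each line taken as a replicate, and left out the parental library. p-values measure the spread between these lines. Standard errors are the log2 fold change divided by the root of its F statistic. Summed levels and shares were described without a test, shares only where at least 20 counts lay behind them (50 as an alternative), with exact Clopper-Pearson intervals. Alternatives were the likelihood ratio test, DESeq2 1.42.0, RLE factors, library totals alone, no filter, a threshold of 0.05, log10 total as covariate, thinning to 480919 counts, immunoglobulin rows left out of the scaling, and the libraries labelled DMSO 12 and Pac H9 left out. Leaving out each of those 2 alone, each library of the reduced fit in turn, or the 2 together with no filter, was chosen after seeing the data. The fit was also run on simulated counts with known changes as a check of the code, and no result here rests on it.

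Named genes were every constant region, the most counted V, D and J members (up to 6 heavy, of which there were 4, 6 kappa and 4 lambda), any member past the threshold and each leading V segment. Genes of the related lists were named as examples and were not always those with the most counts or the smallest p-values. Segments called only with the filter off, segments held by 1 library, and Igkv4-63 beside Igkv4-68 were singled out after their values were seen. The members and lists were chosen with earlier results of these data known.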

Additional observations from a re-analysis of the deposited data

Results flagged for a closer look

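Among the immunoglobulin rows below the summed count minimum, which entered no comparison, 8 held at least 10 counts in a library labelled paclitaxel resistant and at most 3 in every DMSO control library. In the library labelled Pac D7 these were Igkv8-34 with 24 counts, Igkv15-103 and Igha with 20 each, Igkv2-109 with 16 and Igkv5-45 with 10. Igkv12-40 held 20 counts in Pac H4, Igkv8-28 held 16 in Pac E1 and Igkv12-41 held 14 in Pac B2. Each of these rows had most of its counts in that 1 library, so they carry no comparison of the treatments. Segments of this kind were found in DMSO control libraries too, with 19 of the 23 counts of Ighv2-2 in DMSO 4 and 15 of the 16 of Igkv3-4 in DMSO 6.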

How the results depend on the processing

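With all 29 labelled libraries and the filter on, edgeR called 0 of the 16 tested genes higher and 0 lower in the paclitaxel resistant libraries, and the likelihood ratio test, RLE factors, library totals alone, the library total as covariate, thinning and immunoglobulin rows left out of the scaling gave 0 and 0 as well. A threshold of 0.05 gave 0 higher and 1 lower (Ighd). No filter gave 1 higher and 3 lower, beside 0.454% and 0.568% of all rows. DESeq2 gave 1 higher and 2 lower, beside 4.23% in either direction. Without the libraries labelled DMSO 12 and Pac H9 the counts were 1 and 1 of 17 genes tested, beside 1.68% and 1.70%. With no filter as well they were 2 and 5. Without DMSO 12 alone they were 1 (Iglc2) and 0, and without Pac H9 alone 0 and 1 (Ighd), both chosen after seeing the data. The share over all rows was not taken for these last 3 fits or for the threshold of 0.05, so those counts have no background beside them. Over all of these fits the adjusted p of Ighd ran up to 0.075 (thinned), that of Iglc2 up to 0.085 and that of Iglc1 from 0.0017 (DESeq2) to 0.15. The direction turned for Iglv3 with the library total as covariate (log2 fold change -0.049) and for Igkj2 after thinning (0.044), both near 0 throughout. The median share of the leading lambda V segment moved to 95.0% in the DMSO control and 92.8% in the paclitaxel resistant libraries after thinning, where 1 and 2 libraries had 20 such counts left. Medians of the summed, heavy, kappa and lambda levels moved by less than the SD between libraries under each alternative. Depth limits the V and J segments, most of which hold few counts per library. No paired analysis was possible because the lines were separate and no label ties a DMSO control line to a paclitaxel resistant line by number.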
